A study of Sus scrofa with 2 samples.

Results

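LPCAT4, NUTM1, EMC4, EMC7, KATNBL1, CHRM5 and AVEN are 7 neighbouring genes of pig (Sus scrofa) chromosome 7, within 499 kb near 80 Mb, that share a hub of chromatin loops in spleen. They are 7 of the 19550 protein-coding genes that RefSeq places on chromosomes of the assembly Sscrofa11.1, and all 7 symbols were matched there. The genes were chosen by the number of listed loops at their ends in these same data, in which LPCAT4 and NUTM1 ranked among the genes with the most loops, and by being their loop partners. Their loop numbers, contacts and ratios are therefore a description, with no test. All loops with an anchor within 500 kb of the genes were taken, 12 of the 3410 listed.

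The data are in situ Hi-C of spleen tissue, a method that ligates and sequences DNA fragments lying close together in the nucleus, in 2 biological replicates of a single group of pigs. The labels give the tissue and nothing on breed, age, sex or treatment. The deposited tables list 1927 topologically associating domains (TADs, stretches of chromatin with more contacts inside than across their borders) and the loops, for the whole series and not per replicate. The sequencing depth is unknown here, and the values below carry no replicate error. Expression was not measured, so the tissue could not be checked against its marker genes.

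A loop in such a table is a pair of bins, each 25 kb wide and called an anchor, with more contacts than the pixels around it. In mammals such loops are known to form largely where cohesin extrudes chromatin until it meets the insulator protein CTCF, and others join active promoters to regulatory elements. LPCAT4 is an acyltransferase that rebuilds phospholipids from their lyso forms, and NUTM1 is a gene known in humans for its activity in testis and for its fusions in NUT carcinoma. EMC4 and EMC7 are subunits of the endoplasmic reticulum membrane complex, which inserts membrane proteins. KATNBL1 is a relative of the regulatory subunit of katanin, the enzyme that severs microtubules, CHRM5 is a muscarinic acetylcholine receptor, and AVEN is an inhibitor of apoptosis. No strand was given for the genes, so each annotated end was used, and "gene end" below means either the first or the last base of a gene. "Lower" and "higher" ends refer to coordinates.

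All 7 genes had an end in an anchor, against 17.3% of all protein-coding genes, and the choice of genes fixed this count. LPCAT4 (from 80140969 to 80155040) and NUTM1 (from 80149764 to 80159497) had the same 5 loops each, a number that 0.0665% of all protein-coding genes reach. EMC4, EMC7 and CHRM5 had 2 loops each, and 4.85% of all protein-coding genes had 2 or more. KATNBL1 and AVEN had 1 loop each. LPCAT4 and NUTM1 thus stood at the common side of all 5 loops, and each of the other 5 genes at a far side. Of the 21 pairs of the 7 genes, 10 were joined by a listed loop, and each such pair held either LPCAT4 or NUTM1. The other 5 genes were chosen as loop partners of LPCAT4 and NUTM1, which fixed these 10 pairs. Some of the other pairs lie closer than 100 kb, the shortest span in the list, and could not be listed.

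**Figure D1:**
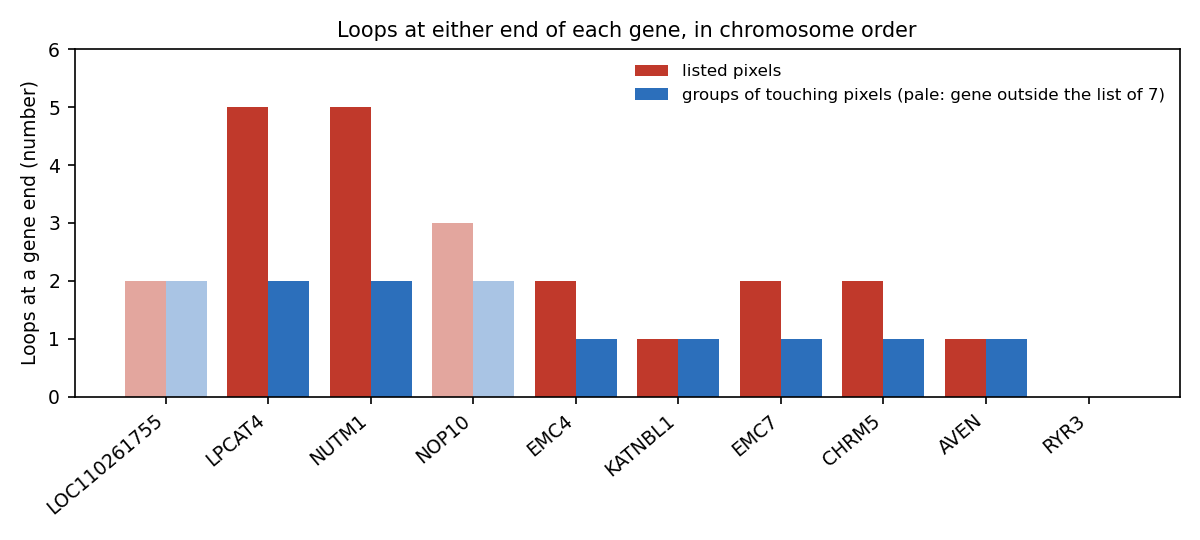
Number of listed loops (red) and of groups of touching pixels (blue) at either end of the 7 genes and of neighbours named in the text, in chromosome order, with paler bars for genes outside the list of 7. LPCAT4 and NUTM1 have 5 loops in 2 groups, NOP10 has 3 loops in 2 groups, and RYR3 has 0.

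The position of LPCAT4 and NUTM1 on the grid of bins bears on this number. Both genes lie across the border between the anchor from 80125001 to 80150000 and the anchor from 80150001 to 80175000. The lower anchor holds 9.03 kb of LPCAT4 and the higher anchor its last 5.04 kb. NUTM1 reaches only 237 bases into the lower anchor, with 9.50 kb in the higher one, and these genes overlap by 5277 bases. The lower anchor had 2 loops and the higher anchor 3, so the 5 loops of each gene are the sum over adjoining bins. By gene midpoints, LPCAT4 had the 2 loops of the lower anchor and NUTM1 the 3 loops of the higher. CHRM5 is split in the same way at the other side of the hub, with 1.23 kb in the anchor from 80400001 and 4.19 kb in the anchor from 80425001.

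Genes outside the list shared these anchors, and not all of them are named here. NOP10 (from 80161024 to 80162299), a component of the particles that pseudouridylate RNA and of telomerase, lay whole in the anchor from 80150001 and had 3 loops. The unnamed locus LOC110261755 ended at 80138194 in the lower anchor and had 2 loops. An lncRNA locus, LOC106510193, lay whole in the anchor from 80400001. RYR3, a calcium release channel of 569 kb that overlaps the far end of AVEN by 91 bases, had 0 loops, and the far end of AVEN at 80640120 was in no anchor.

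The 5 loops fell into a nearer and a farther set. In the nearer set, 2 loops ended at the anchor from 80250001 to 80275000, which holds EMC4 (from 80266001 to 80270691) whole. The loop from the anchor at 80150001 spanned 100 kb and had 191 observed contacts (95% Poisson interval 165 to 220), against 93.8 expected from the donut of pixels around it. This was the loop with the most contacts among the 12. The loop from the adjoining anchor at 80125001 to the same partner spanned 125 kb and had 107 contacts (87.7 to 129), against 52.0 expected. All these intervals were computed here from the counts, and they cover counting error only.

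In the farther set, 3 loops ended in 3 adjoining bins. The anchor from 80375001 to 80400000 holds the higher end of KATNBL1 (from 80287989 to 80383036) and the lower end of EMC7 (from 80391198 to 80408340). Its loop to the anchor at 80125001 spanned 250 kb and had 65 contacts (50.2 to 82.8), against 28.0 expected. The anchor from 80400001 to 80425000 holds the higher end of EMC7 and the lower end of CHRM5 (from 80423768 to 80429187). Its loop to the anchor at 80150001 also spanned 250 kb, with 81 contacts (64.3 to 101) against 41.7 expected. The anchor from 80425001 to 80450000 holds the higher end of CHRM5 and the lower end of AVEN (from 80447337 to 80640120). Its loop, again to 80150001, spanned 275 kb and had 95 contacts (76.9 to 116), against 42.5 expected. The longest loop of the hub thus had more contacts than both loops of 250 kb, but the 3 intervals overlapped.

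**Figure D2:**
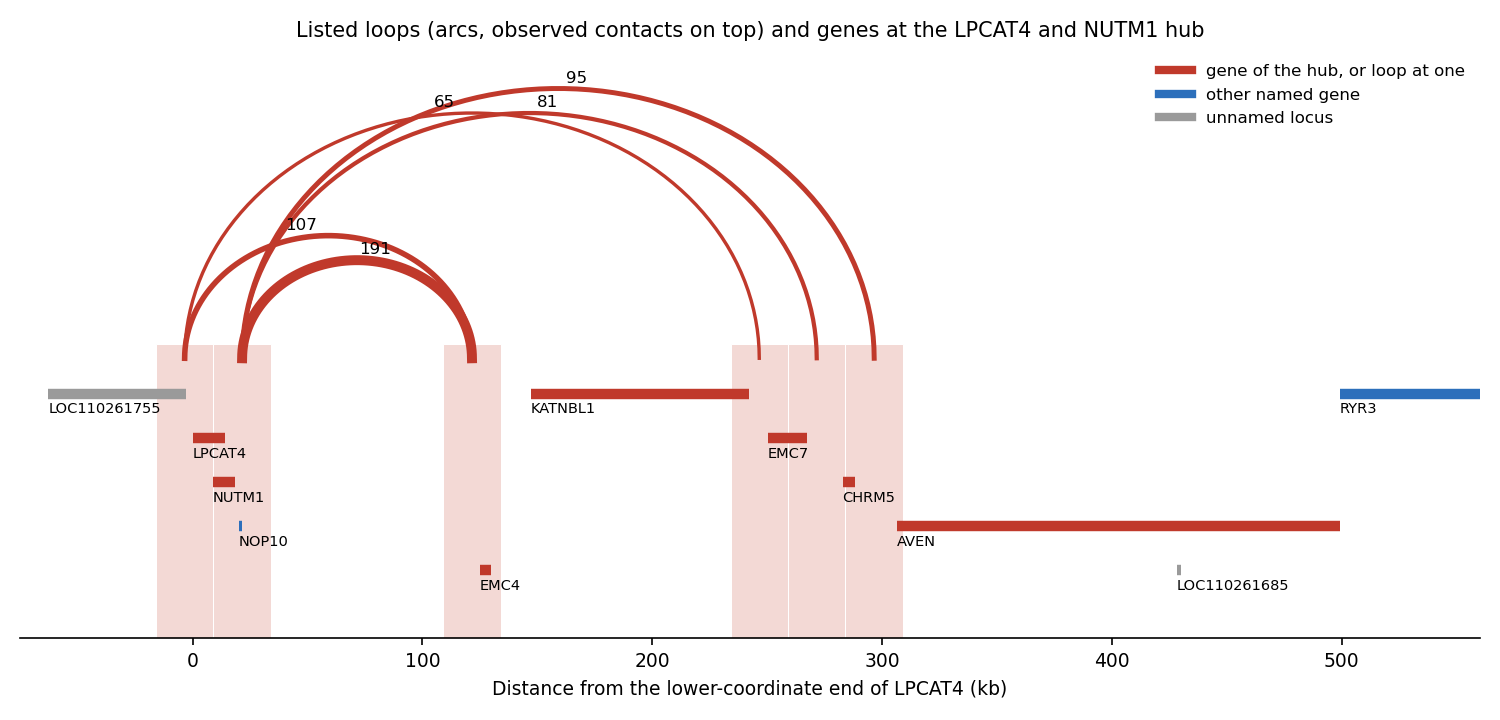
Listed loops (arcs, line width and number by observed contacts) above the 7 genes and neighbours named in the text, with the 6 anchors shaded and distance in kb from the lower end of LPCAT4 on the x axis. All 5 arcs start at LPCAT4 and NUTM1 and run to higher coordinates, 2 to the anchor of EMC4 and 3 to the adjoining anchors of KATNBL1, EMC7, CHRM5 and AVEN. RYR3 runs past the right edge.

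Relative to their surroundings, the 5 loops had 1.94 to 2.32 times the expected contacts. Observed over donut-expected contacts was 2.04 (interval 1.76 to 2.35) for the loop of 100 kb and 2.06 (1.69 to 2.49) for that of 125 kb. It was 2.32 (1.79 to 2.96) for the loop to KATNBL1 and EMC7, 1.94 (1.54 to 2.41) for the loop to EMC7 and CHRM5, and 2.23 (1.81 to 2.73) for the loop to CHRM5 and AVEN. These intervals take the expected value as exact. All 5 overlapped, which does not show that the ratios are equal. Over the 4 neighbourhoods of the authors' deposited table (donut, lower left, horizontal and vertical) the ratio of the hub loops lay between 1.68 and 2.35.

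Pairs of neighbouring pixels were set side by side with and without their expected values. The intervals cover counting error only and take the expected values as exact. At the EMC4 anchor, the loop from 80150001 had 1.79 times the contacts of the loop from 80125001 (exact interval 1.40 to 2.28). These loops differ in span, 100 kb for the first and 125 kb for the second. The ratio of their observed-to-expected values was 0.989 (0.777 to 1.27). For the adjoining partners of the anchor at 80150001, the contacts with CHRM5 and AVEN were 1.17 times those with EMC7 and CHRM5 (0.863 to 1.60), and the ratio of observed-to-expected values was 1.15 (0.846 to 1.57). Between the loops of equal span, 250 kb, contacts of the one from 80150001 were 1.25 times those of the one from 80125001 (0.888 to 1.75), and the ratio of observed-to-expected values was 0.836 (0.596 to 1.18). All these ratios describe loops that were chosen from the same data, and no test is read from them.

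**Figure D3:**
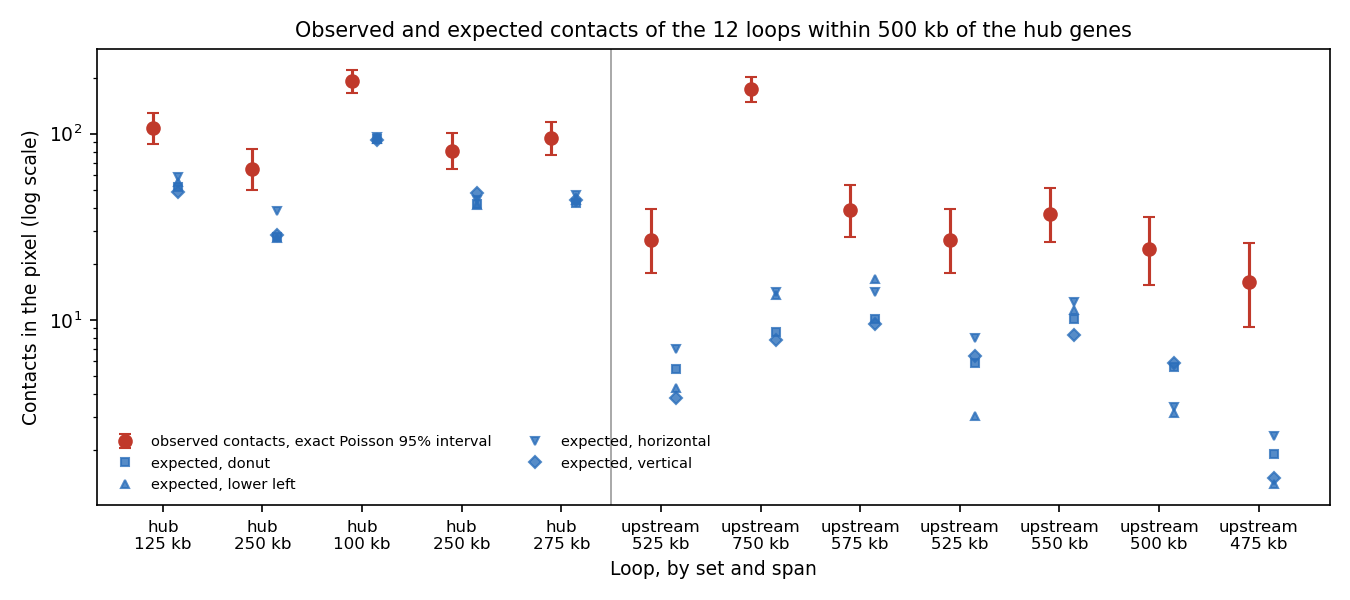
Observed contacts (red points, exact Poisson 95% intervals) and the authors' expected contacts from 4 neighbourhoods (blue symbols) on a log scale, for the 5 hub loops at left and the 7 upstream loops, at lower coordinates than LPCAT4, at right, labelled by span. Hub loops have about 2 times their expected contacts. Upstream loops all have wider gaps, and they have fewer contacts apart from the loop of 750 kb with 173 contacts.

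The FDR of the calls varied widely within the hub. In the authors' deposited table, the largest of the 4 FDR values was 3.41e-12 for the loop of 100 kb, 2.14e-05 for the loop to CHRM5 and AVEN and 0.000189 for the loop of 125 kb. The same table gives 0.0130 for the loop to EMC7 and CHRM5. For the loop to KATNBL1 and EMC7 the authors' deposited table gives 0.0595, from the horizontal neighbourhood, with 38.4 contacts expected there. Among the 1701 placed loops with the lowest FDR in the authors' deposited table, up to 0.0111, were 3 of the 5 hub loops. EMC7 and KATNBL1 then had 0 loops.

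Pixels that touch may belong to a single contact. The 5 hub loops formed 2 groups of touching pixels, a pair at EMC4 and a trio that runs diagonally across KATNBL1, EMC7, CHRM5 and AVEN. LPCAT4 and NUTM1 were in both groups, and 2.14% of protein-coding genes had 2 or more groups at their ends. The 2 bins of LPCAT4 and NUTM1 and the 4 partner bins allow 8 pairs, of which 5 were listed. Among the partner bins, 3 pairs lie 100 kb or more apart, the shortest span in the list, and 0 of these were listed. EMC4 was thus not listed as joined to EMC7, CHRM5 or AVEN. A pair that is not listed can still be in contact.

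By contacts, the hub loops ranked from low to high among loops of their span. Among 718 other autosomal loops of 100 kb, 92.1% had fewer contacts than the first EMC4 loop, and their median was 136. Among 435 other loops of 125 kb, 23.9% had fewer than the second EMC4 loop. Of 143 others of 250 kb, 6.29% had fewer than the loop to KATNBL1 and EMC7 and 25.9% fewer than the loop to EMC7 and CHRM5, with a median of 99 for both. The loop to CHRM5 and AVEN had more contacts than 59.4% of 128 others of 275 kb. By observed over expected contacts, 24.5% to 87.9% of loops of the same span lay lower. The median ratio was 2.06 for the hub loops and 1.92 for the 2515 other autosomal loops of 100 to 275 kb, whose quartiles were 1.75 and 2.15.

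**Figure D4:**
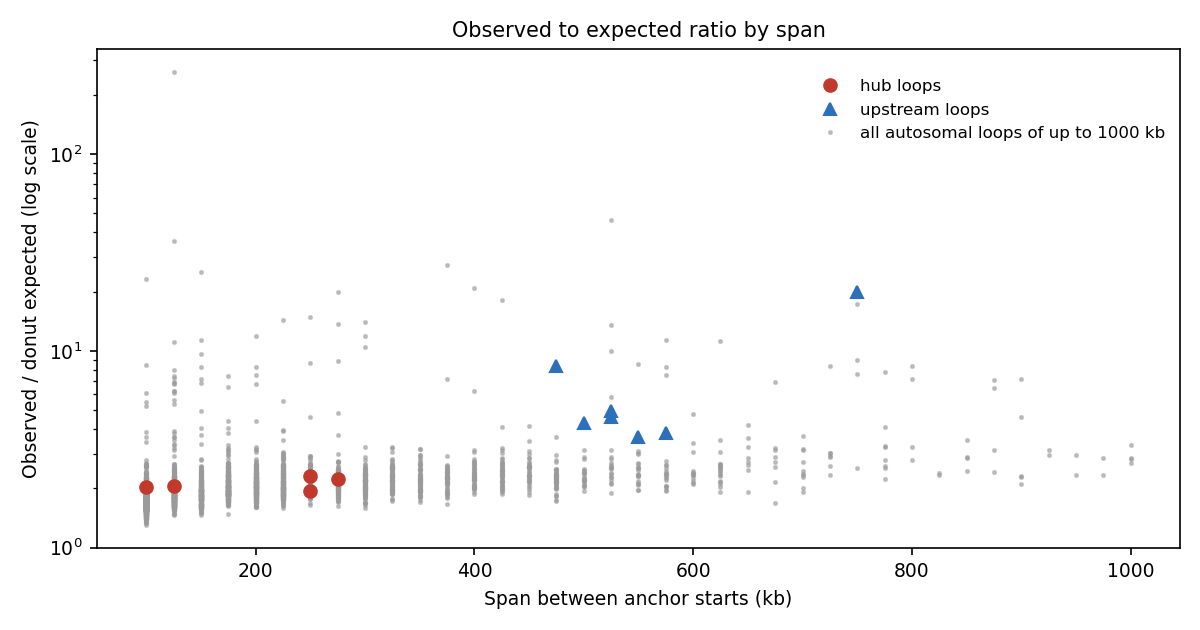
Observed over donut-expected contacts (log scale) against span in kb for the hub loops (red), the upstream loops (blue) and all autosomal loops of up to 1000 kb (grey). The hub loops lie within the grey band between 1.94 and 2.32, and the upstream loops lie at its upper side, between 3.66 and 19.99.

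Gene ends were dense at the hub. The genes were chosen by their ends at these anchors, which favours high counts, so the counts are a description. The 6 anchors held 17 ends of protein-coding genes, some of them not named here, or 2.83 per anchor, against a mean of 0.858 over the 5285 placed anchors. That all 6 held one, against 47.2% of placed anchors, was fixed by the choice of genes. Upstream, 6 of 11 anchors held one. The anchor at 80150001 held 5 ends, those of NOP10, LPCAT4 and NUTM1 among them, and 2.08% of anchors held as many or more. It had 3 loops, as many or more than which 3.78% of anchors had. All 3 ran to higher coordinates, and of the 200 placed anchors with 3 or more loops, 79.5% had all loops to one side. Each of the 5 hub loops had a gene end at both anchors, against 26.4% of placed loops. The genes were chosen for this, and nothing is read from the difference.

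Crowding was counted by loops and by groups, as a description only. The genes were chosen by their loops and the window was fitted to the hub, so a high rank by loops was favoured. From the first hub anchor, 5 loops lay within the hub's width of 325 kb. Of 2698 such windows, one from each distinct left anchor, 1.59% held as many or more, and the median was 1. Counted in groups of touching pixels, 15.6% of windows held 2 or more.

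No listed loop joined an anchor lying wholly below LPCAT4 to an anchor of the hub. The other 7 of the 12 loops lay upstream, that is at lower coordinates, and the anchor of theirs nearest to LPCAT4 ended 116 kb before it. From the first of their anchors, at 79150001, to LPCAT4, the annotation has 34 protein-coding genes, all of them unnamed LOC loci, with a median length of 0.952 kb. The last of these loci, LOC110261755, ended in the lower anchor of the hub, so the region below LPCAT4 shared 2 of the hub loops through it. From LPCAT4 to AVEN the annotation has 10 protein-coding genes, of which 1 is a LOC locus, with a median length of 11.9 kb. Loops that join an anchor below LPCAT4 to one above its lower end numbered 0.

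Upstream loops were longer than the hub loops, with a lower median of contacts and higher ratios. Spans were 100 to 275 kb in the hub and 475 to 750 kb upstream. The hub loops had a median of 95 contacts (65 to 191) and the upstream loops one of 27 (16 to 173). Median ratios to expected contacts were 2.06 in the hub and 4.59 upstream. In the range of spans of the upstream loops, 194 other autosomal loops had a median of 67 contacts and a median ratio of 2.39. Expected contacts were also lower for the upstream loops, with a median of 5.88 against 28.4 for those other loops. Where few contacts are expected, a pixel needs a higher ratio to be listed, so these ratios are not directly comparable. With such low counts the upstream ratios are less precise: the loop of 475 kb, from 79425001 to 79900001, had 16 contacts against 1.901 expected, a ratio of 8.42 (4.81 to 13.7).

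A loop of 750 kb stood apart among them. It joined the anchor from 79250001 to 79275000 to that from 80000001 to 80025000, and had 173 contacts (148 to 201) against 8.65 expected, a ratio of 19.99 (17.1 to 23.2). All 4 of its FDR values are 0 in the authors' deposited table. None of the 194 other autosomal loops of 475 to 750 kb had as many contacts, and 1 had a ratio as high. The other 6 upstream loops had at most 39 contacts and ratios of at most 8.42. In the authors' deposited table, the largest of their 4 FDR values ran from 0.00113 to 0.0693. Neither anchor of the loop of 750 kb held a protein-coding gene end, which held for this 1 of the 7 upstream loops. The share of placed loops with none is not given here, and with anchors extended by 10 kb both of its anchors held one. At both anchors 2 of the 7 upstream loops had a gene end, in each case of LOC loci. That is 28.6%, near the 26.4% of all placed loops. Of the upstream loops, 4 formed a group of touching pixels between 79275001 and 79875000, with 24 to 39 contacts.

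**Figure D5:**
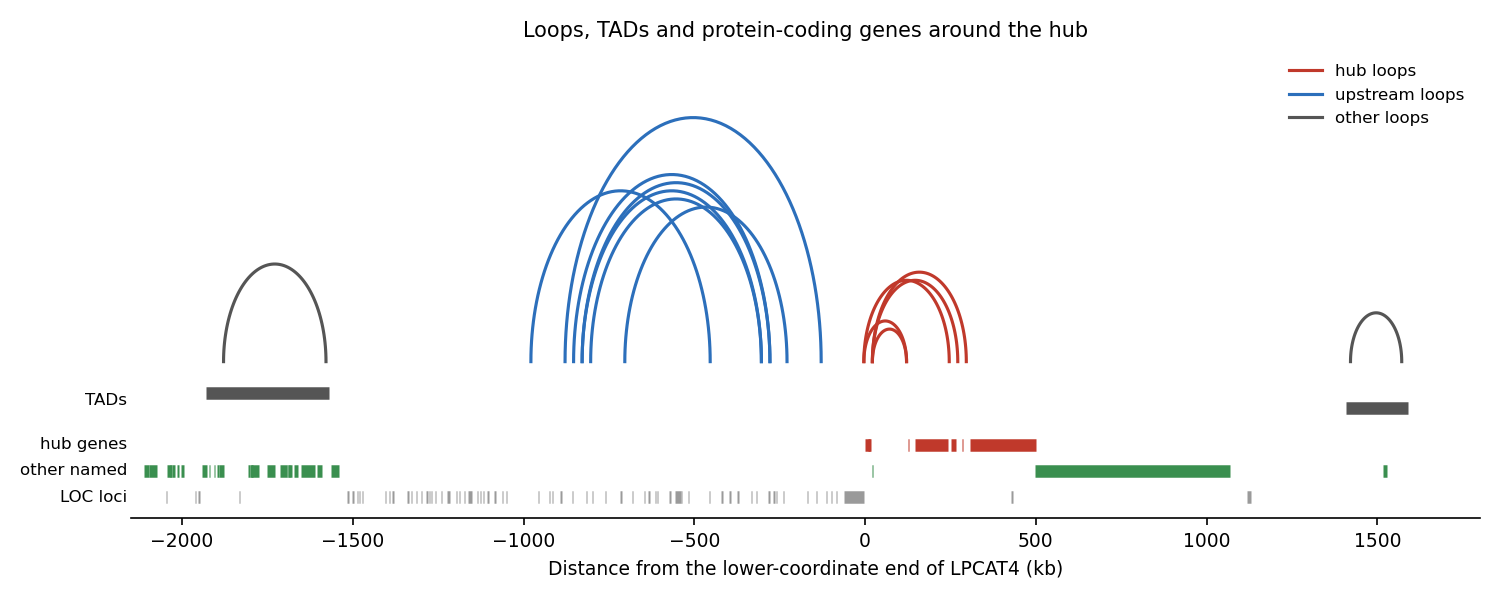
Loops (arcs), TADs (grey bars) and protein-coding genes by class around the hub, not all of them drawn, with distance in kb from the lower end of LPCAT4. The hub loops and the upstream loops lie side by side with no arc between them, in a stretch of 2980 kb without a TAD.

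The whole locus lay outside the listed TADs. The nearest TADs were from 78210001 to 78570000, 1571 kb below LPCAT4, and from 81550001 to 81730000, 910 kb above AVEN. The stretch between them, 2980 kb, was longer than most, with 7.33% of the 1788 gaps on placed chromosomes as long or longer and a median gap of 360 kb. Within it lay 76 protein-coding genes, 65 of them LOC loci, and all 12 loops. Both anchor midpoints were outside every TAD for all 12, which held for 32.4% of placed loops. Of the 12, 0 joined both edges of a TAD within 20 kb, against 28.2% of placed loops. None of the 7 genes had an end within 20 kb of a TAD edge, against 18.7% of protein-coding genes. Being neighbours, the 7 genes and 12 loops count as a single place for this. In contrast, the next loop beyond 500 kb, from 81550001 to 81725000 with 122 contacts and a ratio of 2.43, joined both edges of the TAD above AVEN. The farthest loop within 500 kb was that from 79150001, with 27 contacts and a ratio of 4.96, whose nearer anchor lay 441 kb from LPCAT4.

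Relatives and partners of the 7 genes were looked up at loop anchors in the same way. Of the EMC complex, 9 of 10 subunits were matched, and EMC4 and EMC7 were at anchors while 0 of the other 7 were. EMC9, also on chromosome 7 (from 75159150 to 75161917), was among those with 0 loops. Among acyltransferases of lysophospholipids, 3 of 11 matched genes besides LPCAT4 were at an anchor. LPGAT1 had 1 loop of 150 kb with 109 contacts, AGPAT5 had 1 of 375 kb with 72 contacts, and MBOAT7, which acts on lysophosphatidylinositol, had 1 of 2825 kb with 47. LPCAT1, LPCAT2 and LPCAT3 had 0.

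Of the muscarinic receptors besides CHRM5, 1 of 4 was at an anchor. It was CHRM4 on chromosome 2 with 3 loops in 1 group, a median of 114 contacts and a median ratio of 1.75. In the katanin family besides KATNBL1, 0 of 4 were. Of 5 genes that act with AVEN in apoptosis or checkpoint control, namely BCL2L1, APAF1, CASP9, ATM and CHEK1, 0 were. With 17.3% of all protein-coding genes at an anchor, counts of this kind in lists this short are near the background.

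Other hubs of the table give a scale for the numbers. LPCAT4 and NUTM1 were among 13 protein-coding genes with 5 or more loops. They had 5 loops in 2 groups, all 5 to higher coordinates, with a median of 95 contacts and a median ratio of 2.06. ABT1 and HMGN4, also on chromosome 7, had 7 loops in 4 groups, of which 4 ran to higher and 3 to lower coordinates, with a median of 82 contacts and a median ratio of 2.34. ARF6 and VCPKMT on chromosome 1 had 7 loops in 4 groups, with a median of 175 contacts and a ratio of 1.86, and 3 of these joined the genes' own anchors. SLC16A6 and ARSG on chromosome 12 had 6 loops in 2 groups, 2 to higher and 3 to lower coordinates, with a median of 156 contacts and a ratio of 1.998. A gene end stood at both anchors in 5 of 5 loops of LPCAT4 and NUTM1, 7 of 7 of ABT1 and HMGN4, 4 of 7 of ARF6 and VCPKMT and 3 of 6 of SLC16A6 and ARSG. These differences were not tested, since all 4 hubs were picked for their loops.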

How the data were processed

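Per the labels' protocols, pig spleen chromatin was crosslinked with formaldehyde, cut with DpnII, filled in with biotin, ligated and sequenced as paired ends, in 2 replicates. Per the submitters' processing notes, HiC-Pro 3.1.0 was among the tools. Per the file headers, the loop table comes from juicer_tools 1.9.9 and has the columns of HiCCUPS. Contact counts per pixel were deposited without normalization. It also holds the expected signal of 4 neighbourhoods in the same unit, deposited by the authors, and 4 FDR values (q-values), per the file headers, of up to 0.0999. Neither the TAD caller nor the genome build nor any pooling of replicates was stated (not given in the sources used here). By position, the last listed feature of 12 of 18 autosomes lay within 1000 kb of the last annotated gene of Sscrofa11.1, and none passed the last gene by more than 160 kb.

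Coordinates were counted from 1. A gene was at an anchor where either annotated end lay in it. Pixels were called touching where both anchors differed by at most 1 bin, and a loop's FDR was the largest of its 4 values. A loop joined both edges of a TAD where each edge lay within 20 kb of an anchor. Loops on unplaced scaffolds, 8 in number, are among the 3410 listed but entered no percentage. Poisson, Clopper-Pearson and matched-span values were computed with Python 3.11.15, pandas 2.3.3 and scipy 1.17.1, and the functions were tested on simulated data. Without values per replicate, no test between samples was made and no replicate could be left out. The genes, the 5 lists of related genes reported and the rules were chosen with earlier results of these data known. The genes named are the 7, other protein-coding genes at the anchors of their loops or between them, the lists, the extreme loops and hubs of like size. LOC106510193 and RYR3 were named after their values were seen. Of the genes and lists so named, some are left out of the text and figures. Sequences are not shown.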

Additional observations from a re-analysis of the deposited data

How the results depend on the processing

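Of 29 alternative values of the main results, 21 stayed within 1.5 times the reported count or within the counting interval of the reported median. With 1 pixel per group of touching pixels, the loops within 500 kb were 6 in place of 12, those at LPCAT4 and NUTM1 2 in place of 5, and those with gene ends at both anchors 2 in place of 7. Among the 1701 loops with the lowest FDR were 7 loops near the genes, with a median of 95 contacts in place of 52, and 3 at LPCAT4 and NUTM1. Within 250 kb of the genes lay 7 loops. With anchors extended by 10 kb, all 12 loops had gene ends at both anchors. The share of all placed loops with anchors so extended is not given here, so nothing is read from that count. In each of these settings fewer loops or wider anchors were counted by construction. The number of genes of the 7 at an anchor was 5 by gene midpoints, with 1 pixel per group and among the loops of low FDR, and 7 by gene spans. For 8 named genes, the loop counts moved by over 1.5 times in 0 cases with extended anchors or gene spans, 5 among the loops of low FDR, 6 with 1 pixel per group and 6 by midpoints. Transcription start sites were not run, since the gene table used has no strand. No paired analysis was possible because both tables hold the whole series with no value per replicate. Contact counts of 16 to 191 per pixel set the precision, and the depth of the replicates is unknown.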
